A study of Homo sapiens with 2 samples.

Results

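The ZNF genes of chromosome 19 were examined in 2 peak lists of histone H3 acetylated at lysine 27 (H3K27ac), a modification found at promoters and enhancers in use. Members were the protein-coding genes on chromosome 19 whose symbol is ZNF followed by a number, with or without a closing letter, in the RefSeq annotation of the hg38 genome build. This gave 246 of 1451 protein-coding genes on the chromosome and of 20037 in all. The rule does not use the peaks. A further 4 records whose name joins a ZNF gene to a second label (3 readthrough records and a divergent transcript) were left out.

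The cells were F36P, an erythroid leukaemia line of human origin. The ERG library came from F36P cells carrying the MSCV-PIG-AM-ERG retroviral plasmid, labelled as ERG overexpression; ERG is an ETS-family transcription factor. What AM stands for was not established here. The Vector library came from F36P cells with the empty MSCV-PIG plasmid, labelled WT, and both sets of cells had been selected with 1 µg/ml puromycin over 4 days. Each group was 1 library, so no difference below has a replicate check, no p-value is given, and every difference is between these 2 libraries and not between conditions. Intervals cover counting error only.

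ZNF genes encode proteins with repeated C2H2 zinc fingers that bind DNA in a sequence-specific way. Many of those on chromosome 19 also carry a KRAB domain, which recruits TRIM28 (KAP1) and the histone methyltransferase SETDB1 to silence transposable elements. The chromosome 19 genes arose by repeated local duplication and lie in clusters, and their 3′ coding exons are known to carry repressive chromatin while their promoters stay open.

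The ERG library held 19671 peaks and the Vector library 9161, of which 1356 and 702 lay on chromosome 19. The number of fragments at each peak summit was recovered from the deposited fold and −log10 p-value, and the lowest local background was 2.31 fragments in the ERG library against 1.60 in the Vector library. Their ratio, 1.44, is used below as the relative depth. Gene ends of erythroid markers were mostly acetylated: 7 of 10 had a peak in both libraries, beside 30.2% of all coding genes. ALAS2 had one in the ERG library and none in the Vector library (called ERG-only), while HBG1 and SLC4A1 had none. Over all coding genes 15.6% were ERG-only and 53.8% had none. ITGA2B of 3 megakaryocyte markers and SPI1 of 5 myeloid markers had a peak in both libraries, and the myeloid genes CD33 and MPO were ERG-only. Of 4 T cell markers CD4 was ERG-only, and none of the 3 B cell, 3 fibroblast and 3 epithelial markers had one in either. ERG-only refers to gene ends here: inside the records, Vector-library peaks covered 1035 bp of CD33 and 308 bp of CD4.

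Promoters picked from the strongest members with a peak in the ERG library alone or in both libraries are shown first. A RefSeq promoter table (GRCh38.p14, the coordinates of hg38) held 268 start sites for 216 of the 246 members. Each line gives the 250 bases before a start site in the direction of the gene, with the 7 letters CCGGAAG, or their reverse complement CTTCCGG, in capitals where present. These letters are the core of a common ETS-family binding sequence. Apart from ZNF566 and ZNF136, a promoter was printed only if it held the letters. The printed set therefore does not show how common they are: 28.4% of all member start sites held them. ZNF566 had the strongest ERG-only peak by −log10 q-value, and ZNF136 the strongest in both libraries; neither held the letters in this window. ZNF829 and ZNF568 point away from each other over 1 peak of the ERG library and share a single match. ZNF582 and ZNF91 are further ERG-only members, and ZNF274 had a peak in each library.
ZNF566 (chr19:36489562-36489811, minus strand): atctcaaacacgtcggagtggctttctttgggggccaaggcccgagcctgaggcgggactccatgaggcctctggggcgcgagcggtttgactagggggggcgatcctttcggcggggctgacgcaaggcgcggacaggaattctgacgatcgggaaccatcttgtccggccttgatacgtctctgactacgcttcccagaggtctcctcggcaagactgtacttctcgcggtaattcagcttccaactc
ZNF829 (chr19:36916292-36916541, minus strand): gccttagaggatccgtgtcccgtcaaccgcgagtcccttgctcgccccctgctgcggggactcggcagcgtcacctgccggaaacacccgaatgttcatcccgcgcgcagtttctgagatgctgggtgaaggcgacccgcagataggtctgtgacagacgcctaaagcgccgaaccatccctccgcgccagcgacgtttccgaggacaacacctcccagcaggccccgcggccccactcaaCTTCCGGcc
ZNF568 (chr19:36916082-36916331, plus strand): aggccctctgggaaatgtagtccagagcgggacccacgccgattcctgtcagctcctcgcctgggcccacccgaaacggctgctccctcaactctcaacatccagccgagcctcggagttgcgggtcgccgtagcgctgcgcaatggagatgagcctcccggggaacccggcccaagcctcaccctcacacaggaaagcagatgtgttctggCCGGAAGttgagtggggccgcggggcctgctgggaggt
ZNF582 (chr19:56393535-56393784, minus strand): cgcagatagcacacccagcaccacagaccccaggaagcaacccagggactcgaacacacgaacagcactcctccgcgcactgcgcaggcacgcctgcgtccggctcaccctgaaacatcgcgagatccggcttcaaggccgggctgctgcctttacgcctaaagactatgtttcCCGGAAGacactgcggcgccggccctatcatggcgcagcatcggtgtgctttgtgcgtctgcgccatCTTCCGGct
ZNF91 (chr19:23395472-23395721, minus strand): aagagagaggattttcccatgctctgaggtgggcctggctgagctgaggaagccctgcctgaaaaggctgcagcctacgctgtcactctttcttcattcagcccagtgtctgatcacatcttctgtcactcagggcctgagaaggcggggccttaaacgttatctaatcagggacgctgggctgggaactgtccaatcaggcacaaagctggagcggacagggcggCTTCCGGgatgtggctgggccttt
ZNF136 (chr19:12162846-12163095, plus strand): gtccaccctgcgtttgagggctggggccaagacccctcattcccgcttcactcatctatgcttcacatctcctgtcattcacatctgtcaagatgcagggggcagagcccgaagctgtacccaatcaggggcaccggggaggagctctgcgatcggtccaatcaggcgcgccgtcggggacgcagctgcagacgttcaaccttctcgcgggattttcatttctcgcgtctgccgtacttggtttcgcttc
ZNF274 (chr19:58182811-58183060, plus strand): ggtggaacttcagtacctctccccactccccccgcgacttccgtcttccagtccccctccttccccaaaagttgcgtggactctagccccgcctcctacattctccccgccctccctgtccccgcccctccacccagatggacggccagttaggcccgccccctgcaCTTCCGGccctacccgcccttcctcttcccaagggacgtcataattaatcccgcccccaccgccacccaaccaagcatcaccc

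Most chromosome 19 ZNF genes had an acetylated end. No member had one in the Vector library alone, but neither did any of the 263 ZNF genes of other chromosomes. Such genes were rare among all coding genes too, and 97.9% of Vector-library peaks at coding gene ends overlapped an ERG-library peak. A gene end was counted as having a peak when a peak overlapped the 1 kb either side of the start or the end of the gene record. Members marked in both libraries, called shared below, numbered 111 of 246, 45.1% (exact 95% interval 38.8 to 51.6), where all protein-coding genes gave 30.2%. ERG-only members numbered 79, 32.1% (26.3 to 38.3), beside 15.6% of all coding genes. Vector-only members numbered 0 of 246, which allows a share of up to 1.22% by 3 counts of the total and 1.49% by the exact interval, beside 0.354% of all coding genes. Neither library had an end peak at 56 members, 22.8% (17.7 to 28.5), beside 53.8%. Of the 135 members that lacked an end peak in the Vector library, the ERG library had one at 58.5% (49.7 to 66.9), whereas over all coding genes that share was 22.5% (21.8 to 23.2). With the ERG list limited to its strongest 9161 peaks, the length of the Vector list, 51 members were ERG-only and 6 Vector-only, beside 6.15% and 3.66% of all coding genes.

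Set beside their neighbours and their relatives, the members had the highest share with an ERG-library end peak. It was 77.2% (71.5 to 82.3) for the members, 68.4% (62.4 to 74.0) for 263 ZNF genes of other chromosomes, and 46.5% (43.7 to 49.4) for 1201 other coding genes of chromosome 19. In the Vector library the order differed, with 45.1% of the members, 47.9% (41.7 to 54.1) of the ZNF genes elsewhere and 29.1% (26.5 to 31.7) of the other chromosome 19 genes. Shares of the members and of the ZNF genes elsewhere lie within each other's counting intervals in the Vector library. Of ERG-only genes the shares were 32.1% (26.3 to 38.3) and 20.5% (15.8 to 25.9). These are counts over genes in 1 library each, and no test of the set was made.

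**Figure D1:**
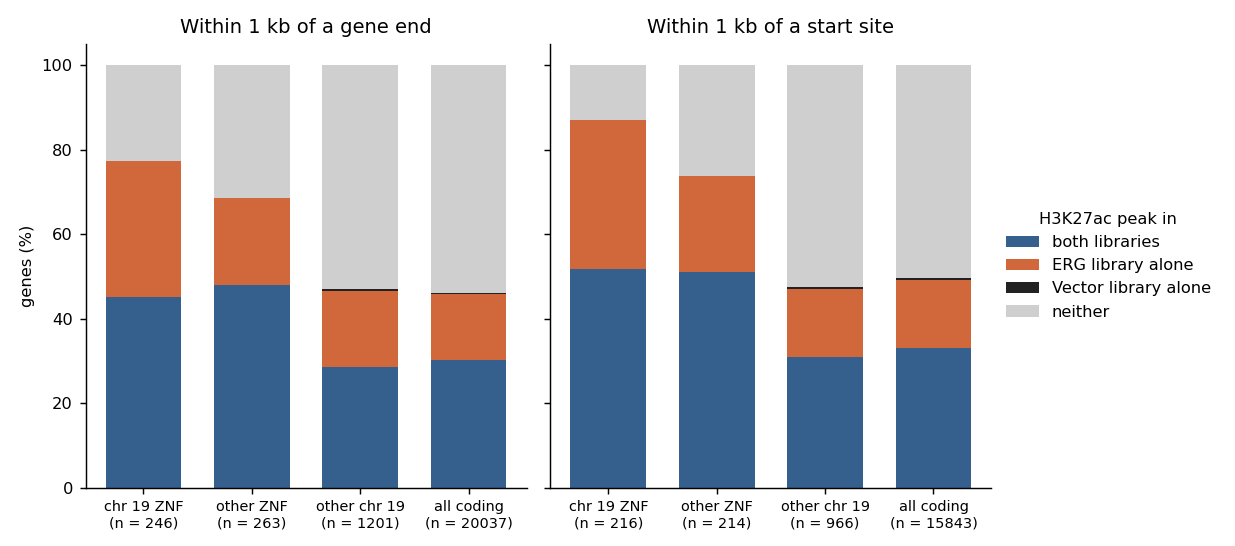
Stacked bars give the percentage of genes with an H3K27ac peak in both libraries (shared), one library (ERG-only or Vector-only) or neither, within 1 kb of a gene end (left) and of a listed start site (right), for chromosome 19 ZNF genes, other ZNF genes, other chromosome 19 genes and all coding genes. The ERG-only segment is 32.1% of chromosome 19 ZNF genes and 15.6% of all coding genes at gene ends.

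The peaks lay mostly at promoters. Of the 216 members with a listed start site, 112 had a peak within 1 kb of one in both libraries, 51.9% (45.0 to 58.7), where all coding genes with a listed start site gave 33.2%. A further 76 were ERG-only there, 35.2% (28.8 to 42.0), beside 16.1%, and 0 were Vector-only, beside 0.322%. That leaves 28 members, 13.0% (8.79 to 18.2), with no start-site peak in either library, beside 50.4% of all coding genes. Among ZNF genes of other chromosomes 50.9% were shared at a start site, 22.9% ERG-only and 26.2% had none. The far end of the gene carried a peak at 7 members (3.24%) by the ERG list and at 2 (0.926%) by the Vector list, near the 3.57% and 1.41% of all coding genes. None of these 7 lacked a start-site peak.

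Within the promoter the summit sat just inside the transcribed side. The ERG-library summit lay a median of 186 bases downstream of the nearest listed start site (quartiles 78 to 272, 171 members), downstream in 134 and upstream in 37. The Vector-library summit lay a median of 241 bases downstream (quartiles 169 to 313, 98 members), downstream in 85 and upstream in 13. Within 500 bases of the start site were 153 of the 171 and 90 of the 98 summits. Chromatin was cut with micrococcal nuclease, which leaves nucleosomes, so summits are positions of acetylated nucleosomes and not of factors bound to the DNA between them.

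**Figure D2:**
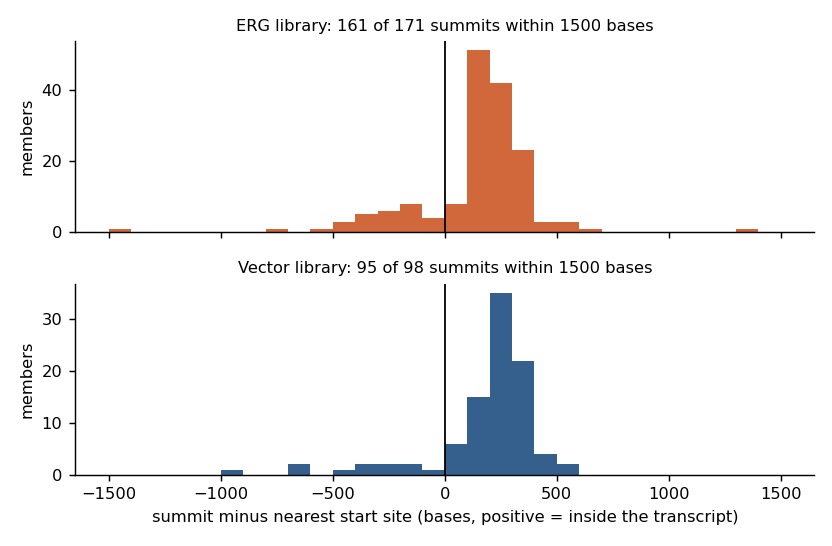
Histograms of the distance from the nearest listed start site to the summit of the end peak of each member, in bins of 100 bases (horizontal axis, bases, positive inside the transcript; vertical axis, number of members), for the ERG library (top) and the Vector library (bottom). Summits beyond 1500 bases (10 and 3) are not drawn. Both histograms rise just inside the transcript, around medians of 186 and 241 bases.

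Several of the strongest ERG-only peaks, ranked by −log10 q-value, came from a single neighbourhood. At ZNF566 the summit held 172 fragments, a deposited fold of 10.5 and a −log10 q-value of 109, with no Vector-library peak at either end. At the relative depth of 1.44 these would be 119 fragments. The divergent pair ZNF829 and ZNF568 shared a peak of 102 fragments (fold 8.51), and the Vector library had none. ZNF568 encodes a KRAB zinc finger protein whose mouse counterpart represses a placental Igf2 transcript. The start sites of the pair are 41 bases apart, so the peak cannot be assigned to either gene.

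ZNF461 and ZNF567, a second divergent pair with start sites 97 bases apart, shared a peak of 63 fragments in the ERG library against none in the Vector library. With ZNF566, ZNF829 and ZNF568 they make 5 of the 10 ERG-only members with the highest −log10 q-value, and all 5 lie in the same group of 26 neighbouring members. Each divergent pair counts the same peak for both of its genes, so the 5 members stand for fewer distinct peaks. By fragments the order differs, and among others ZNF296 (98), ZNF574 (91), ZNF564 (82) and ZNF792 (79) stood above ZNF461 and ZNF567. So did ZNF790 and ZNF345, whose common peak held 75 fragments. By start sites ZNF790 was shared, and with a window of 0.5 kb it had no end peak. The ZNF574 peak also lies at the end of GRIK5, and by start sites ZNF574 was shared. The ZNF792 summit lay 1300 bases from its listed start site, and ZNF792 had no end peak when the summit had to lie inside the window. The others of the 10 were spread over the chromosome. ZNF582, a gene known for promoter methylation in cervical cancer, had 85 fragments in the ERG library (fold 8.07), ZNF414 had 74 (fold 9.84), and ZNF649 had 65 (fold 6.91), all with no Vector-library end peak. ZNF227 had 64 fragments, but that summit stood at -4869 bases from its listed start site. ZNF91, which represses SVA retrotransposons, had 60 fragments (fold 8.56) in a peak from 23394583 to 23395556, against no peak in the Vector library. ZNF649 has no listed start site, and with a window of 2.5 kb it counted as shared.

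ERG-only peaks were weaker as a class, though the classes overlapped. The 79 members of that class had a median of 36 fragments at the ERG-library summit (16 to 172) and the 111 shared members had 62 (10 to 474). Whether a Vector-library peak was found followed the ERG-library number. It was found at 15.6% (5.28 to 32.8) of 32 members with fewer than 30 fragments and at 51.6% (38.6 to 64.5) of 62 members with 30 to 49, where all coding genes gave 24.2% and 56.9%. From 50 to 99 fragments it was found at 70.8% (58.2 to 81.4) of 65 members, where all coding genes gave 85.9% (84.7 to 87.1). With 100 or more it was found at 90.3% (74.2 to 98.0) of 31 members and 96.8% (95.7 to 97.7) of all coding genes. The 3 members of the last class without a Vector-library peak were ZNF566, ZNF568 and ZNF829, and ZNF568 and ZNF829 have the same peak. Scaled down to the Vector-library depth, the ERG list kept 18748 of its 19671 peaks. It gave 78 ERG-only members (31.7%), beside 15.1% of all coding genes. The scaling removed few peaks, so whether depth accounts for this class was not tested.

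Shared members included the promoters with the most fragments, and the 10 described here had the highest −log10 q-value in the Vector library. ZNF136, a KRAB zinc finger gene, held 474 fragments at its ERG-library summit against 210 at its Vector-library summit, a ratio of 2.26 (1.91 to 2.67). ZNF433 held 397 and 177 fragments, and ZNF844 349 and 129. ZNF627 had 288 and 137, ZNF700 287 and 106, ZNF439 225 and 129, and ZNF440 209 and 100. These 7 of the 10 lie in 1 group of neighbours near 12 Mb. ZNF625 of the same group, with 309 and 123 fragments, had more than several of them but a lower q-value rank, and is named after its values were seen. The other 3 were ZNF524 (247 and 92 fragments, a peak that also lies at the end of FIZ1), ZNF460 (242 and 94) and ZNF274 (208 and 85). ZNF274 encodes a protein that binds the 3′ exons of ZNF genes and brings SETDB1 to them, and its promoter peak ran from 58182283 to 58184246 in the ERG library and from 58183026 to 58184337 in the Vector library. In each of the 10 genes the ERG library had more fragments, with no allowance made for the relative depth of 1.44. At ZNF439 the interval of the ratio (1.40 to 2.18) reached below 1.44, and at the other genes it lay above.

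Where both libraries had a peak, the ERG library mostly had more fragments than the relative depth would give, as it did at gene ends in general. Over 108 distinct pairs of overlapping end peaks, which serve 111 members, the ratio of ERG to Vector fragments had a median of 2.27 (quartiles 1.94 to 2.71, range 0.833 to 3.87). At all 4987 shared end peaks of coding genes the median was 2.14 (1.79 to 2.55), and at all 8092 ERG-library peaks with a counterpart it was 2.07. The ratio exceeded the relative depth of 1.44 in 103 of the 108 pairs (95.4%), beside 91.5% of all coding end pairs. Its own interval lay above 1.44 in 60 of the 108 pairs (55.6%) and below it in 0, beside 42.9% and 14 of the 4987. The members' ERG-library peaks were also wider, with a median width of 1032 bp against 506 bp in the Vector library, where all coding ends gave 1025 against 574 bp. The members' ratios thus lay close to those of other gene ends.

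**Figure D3:**
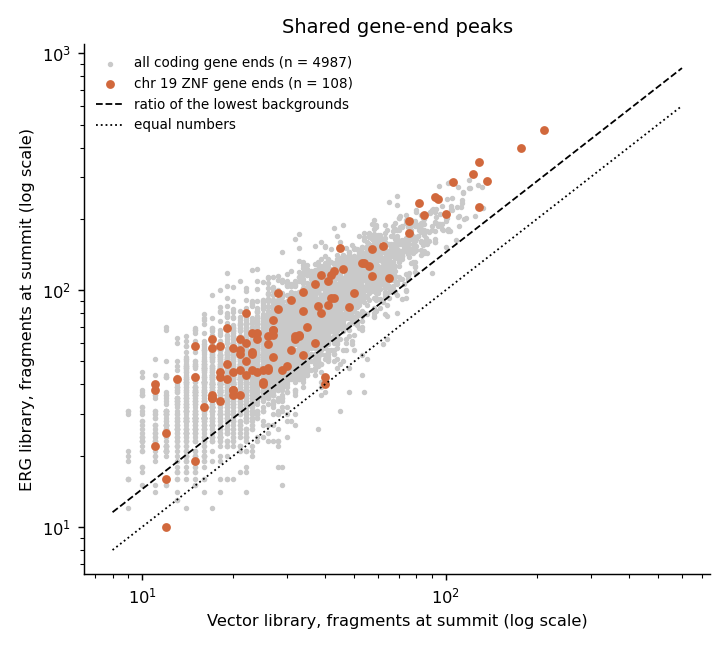
Fragments at the summit of shared gene-end peaks in the Vector library (horizontal, log scale) and the ERG library (vertical, log scale), for 108 peak pairs of chromosome 19 ZNF genes (orange) and 4987 of all coding genes (grey). The dashed line is the relative depth of 1.44 and the dotted line marks equal numbers; 103 of the 108 orange points lie above the dashed line.

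The largest ratios, among the 88 members with at least 20 fragments in both libraries, were at ZNF528 and ZNF880 (80 against 22 fragments, 3.64, interval 2.25 to 6.12), which share that peak. It lies at the start site of ZNF528 and at the far end of ZNF880, whose own start site is 27926 bases away from that of ZNF528. The ERG-library summit stood at -420 bases from the ZNF528 start site and the Vector-library summit at 314 bases, so this ratio compares different places. A further Vector-library peak of 21 fragments, from 52397270 to 52397603, lies under the same ERG-library peak. ZNF480 followed with 97 against 28 fragments (3.46, 2.26 to 5.48), then ZNF441 with 151 against 45 (3.36, 2.39 to 4.79) and ZNF428 with 116 against 39 (2.97, 2.05 to 4.39). The smallest were at ZNF579, with 40 fragments in each library (1.00, 0.629 to 1.59), and at the divergent pair ZNF490 and ZNF791, with 43 against 40 (1.08, 0.682 to 1.70). ZNF546 had 53 against 34 (1.56, 0.995 to 2.47) and ZNF547 46 against 29 (1.59, 0.975 to 2.62). The intervals of ZNF546 and ZNF547 overlap those of the genes with the largest ratios, and each gene was picked as an extreme of the 88.

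Along the chromosome the members fell into 20 groups, a new group starting where neighbouring members lay more than 500 kb apart. The 10 groups with 5 or more members held 232 of the 246. In 8 of these 10 groups between 69.2% and 88.0% of members had an ERG-library end peak, whereas the Vector-library share ran from 30.4% to 76.0% in the same groups. The remaining groups, ZNF554 to ZNF77 and ZNF302 to ZNF792, had 5 members each, of which 3 and 2 had one in the ERG library and 1 each in the Vector library. In the ZNF302 to ZNF792 group, ZNF302 and ZNF599 had no end peak but were shared by start sites, with peaks inside their records.

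The group from ZNF653 to ZNF791 (11483429 to 12633834, 25 members) stood highest in the Vector library, with 19 shared members, 3 ERG-only and 3 without a peak. Its end peaks held medians of 108 (ERG) and 56.5 (Vector) fragments. In the other 9 groups the medians ran from 22 to 116.5 fragments and from 11 to 62, the highest of them from 2 and 1 peaks in the ZNF302 to ZNF792 group. The local background moved with it. Under the end peaks of the ZNF653 to ZNF791 group it was 17.5 and 13.8 fragments, against 9.40 and 6.64 under all chromosome 19 peaks, and under peaks of this stretch that belong to no member it was 15.4 and 18.1. The deposited fold, which divides by that background, was 5.66 and 5.19 in this group, inside the range of the other groups (4.02 to 6.45 and 4.33 to 7.15). The number of DNA copies was not tested, and peak lists do not tell more copies of a locus from more acetylation per copy.

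The group from ZNF101 to ZNF254 (19668153 to 24129968, 37 members) lies next to the centromere and holds ZNF91, ZNF93 and their relatives. Of its members 16 were shared, 12 ERG-only and 9 without a peak, and its end peaks had medians of 43.5 and 22 fragments. ZNF208, with 121 against 43 fragments, had one of the largest covered lengths of all members, 2953 bp against 1214 bp, in a gene record of 71129 bp. In the group from ZNF565 to ZNF573 (36182060 to 37779586, 26 members) the order was turned, with 9 shared and 13 ERG-only. The group from ZNF575 to ZNF180 likewise had 7 shared and 11 ERG-only. The 2 largest groups, ZNF264 to ZNF446 with 43 members and ZNF175 to ZNF331 with 39, had 20 and 19 shared and 11 each ERG-only.

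**Figure D4:**
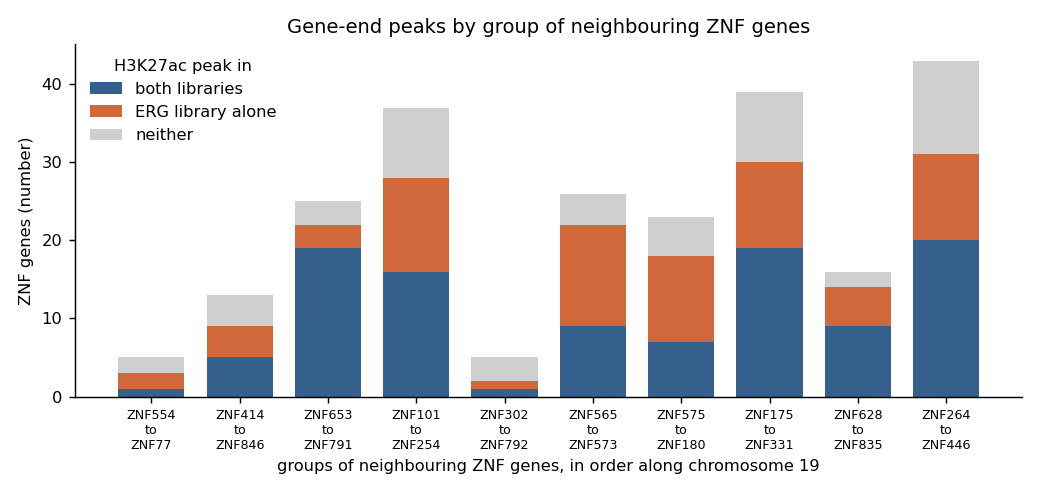
Stacked bars give the number of ZNF genes (vertical) with an end peak in both libraries (shared), one (ERG-only) or neither, for the 10 groups of neighbouring members with 5 or more genes, in order along chromosome 19. The ZNF653 to ZNF791 bar is mostly shared (19 of 25), whereas ERG-only is the largest segment of ZNF565 to ZNF573 (13 of 26).

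Neighbouring members rarely shared an end peak. In the ERG library 8 peaks lay at the ends of 2 members each, and 5 of them were divergent pairs with start sites 41 to 107 bases apart: ZNF490 with ZNF791, ZNF529 with ZNF382, ZNF461 with ZNF567, ZNF790 with ZNF345, and ZNF829 with ZNF568. The Vector library had a peak at 2 of these 5 pairs, ZNF490 with ZNF791 and ZNF529 with ZNF382. A peak at a member can also belong to a gene of another kind, and 14 ERG-library peaks lay at the end of a member and of a coding gene that is no member. With all 28 members whose end peak also serves a further coding gene left out, 97 members had a peak by each library and 65 were ERG-only.

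Peaks inside the gene records, away from the ends, lay mostly near listed start sites of members. In the ERG library 49 members had such a body peak, 19.9% (15.1 to 25.5), beside 16.7% of all coding genes. In the Vector library 28 had one, 11.4% (7.70 to 16.0), beside 7.44%. By class 25 members were shared (all coding 6.54%), 24 ERG-only (10.1%), 3 Vector-only (0.893%) and 194 had no body peak (82.4%). The ERG-library share has the background inside its interval, and the interval of the Vector-library share lies just above its background. Of the 50 distinct body peaks of the ERG library, 31 lay within 1 kb of a listed start site of a member, 1 near that of another coding gene and 18 near none, and of the 25 in the Vector library 18 lay near one of a member. Among members with no peak at the record ends, 11 were shared and 7 ERG-only at a start site, since their listed start site lies inside the record.

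The strongest body peaks were among them. ZNF302 had 165 ERG-library and 57 Vector-library fragments at 34677002 to 34678210, ZNF442 169 and 62 at 12364714 to 12365749, and ZNF565 127 and 56 at 36214697 to 36215966, a peak that is also the promoter peak of ZNF146. None of ZNF302, ZNF442 and ZNF565 had a peak at the record ends and all were shared by start sites, as was ZNF320 (78 and 39 fragments). ZNF880 had 86 and 29 fragments at 52369640 to 52370506. The highest value stood under ZNF69, 287 against 106 fragments, but that peak is the promoter peak of ZNF700, which lies within the long ZNF69 record.

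Acetylated stretches were longer in the ERG library at nearly every member that had any, as at other coding genes. Over the gene record and 1 kb either side, the median covered length was 892 bp for the ERG list and 301 bp for the Vector list. All coding genes had medians of 357 and 0 bp, and ZNF genes of other chromosomes 789 and 325 bp. The ERG library covered a greater length at 207 of 246 members, beside 51.2% of all coding genes, and the Vector library at 3, ZNF584 (1092 against 968 bp), ZNF554 (411 against 376 bp) and ZNF559 (789 against 784 bp), named after their values were seen. The remaining 36 had no peak in either. Of members with any peak 98.6% were covered further in the ERG library, close to the 96.7% of all coding genes with any. Among members with any peak the median excess was 608.5 bp, close to the 590 bp of all coding genes with any. The largest covered lengths were at ZNF69 (6002 against 2239 bp), ZNF574 (3400 against 989 bp), ZNF844 (3097 against 815 bp) and ZNF790 (3036 against 1020 bp). The ZNF69 record also spans ZNF700 and the end peaks of ZNF763 (1863 bp and 532 bp), which count towards its lengths. ZNF792 was covered over 2383 bp and ZNF420, a KRAB gene linked to p53 regulation, over 2300 bp, both against 0 bp in the Vector library.

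Acetylation was found at member start sites with few CpG dinucleotides as well as with many, though less often at the lowest numbers. In the 250 bases before the start site the members had a median of 16 CpG and 59.8% G plus C, and all coding start sites 16 and 62.0%. Start sites with 0 to 4 CpG had an ERG-library peak in 37.5% of only 8 member sites and 7.76% of all coding sites. In the Vector library these shares were 12.5% and 3.47%. Start sites with 5 to 9 CpG had an ERG-library peak in 73.7% of 38 member sites and 24.0% of all coding sites. With 15 to 19 CpG the ERG-library shares were 93.0% of 71 and 62.9%, and with 25 or more 80.6% of 31 and 65.6%. The members' share was higher in each of the 6 ranges of CpG number in the ERG library. In the Vector library it was 31.6% against 13.1% at 5 to 9 CpG, but 48.4% against 48.0% at 25 or more. Over all coding start sites, shared ones had a median of 23 CpG and those with no peak 8, and among members the medians were 17 and 12.5. ZNF genes of other chromosomes were not divided into these ranges.

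**Figure D5:**
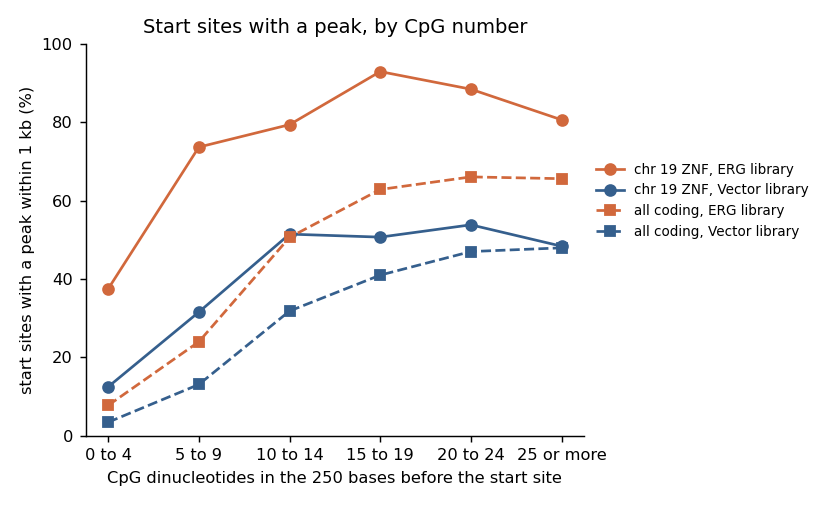
Percentage of start sites with a peak within 1 kb (vertical) by the number of CpG dinucleotides in the 250 bases before them (horizontal), for chromosome 19 ZNF start sites (circles, solid lines) and all coding start sites (squares, dashed lines), in the ERG library (orange) and the Vector library (blue). At 5 to 9 CpG the ERG-library shares are 73.7% and 24.0%; the range 0 to 4 holds 8 member sites.

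The letters CCGGAAG, on either strand, were found before 76 of 268 member start sites (28.4%), 10.7% of all coding start sites and 8.52% of all 35116 start sites of the table. By class they were before 35 of 95 ERG-only member sites (36.8%), 35 of 127 shared ones (27.6%) and 6 of 46 with none (13.0%). ZNF genes of other chromosomes had the letters before 23.6% of start sites, with the classes in another order, 27.6% of ERG-only and 33.8% of shared ones. For all coding start sites the ERG-only, shared and peakless classes gave 18.1%, 18.6% and 4.11%. As printed above, ZNF829 and ZNF568 share a single match, 9 and 38 bases before their start sites, ZNF582 had 2, at 76 and 9 bases, ZNF91 had 1 at 24 bases and ZNF274 had 1 at 83. A match describes the letters and is not evidence of a bound factor.

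Some of the 28 members with no peak at a listed start site in either library are named here. ZNF536, a brain-expressed gene, and ZNF541, a germ cell gene, were among the 28. So were the imprinted gene ZNF331, and ZNF154 and ZNF671, known for promoter methylation in tumours. These 5 were picked from the 28 for what is known of them, and none had a covered base in either library. Whether expression, imprinting or methylation goes with a missing peak was not tested. ZNF582, also known for promoter methylation, had an ERG-library end peak of 85 fragments.

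The partners through which KRAB zinc finger proteins silence their targets were mostly shared. Of 30 listed genes 22 were shared, beside 30.2% of all coding genes, 3 were ERG-only (CBX1, DNMT3A and MPHOSPH8) and 5 had no end peak (DAXX, EHMT2, SUV39H1, UHRF1 and ZFP57). TRIM28, the corepressor that KRAB domains bind, itself a chromosome 19 gene, held 112 ERG-library and 47 Vector-library fragments (2.38, 1.68 to 3.43). SETDB1, the methyltransferase it recruits, held 42 and 15 (2.80, 1.52 to 5.44), and ATF7IP, the partner of SETDB1, 108 and 29 (3.72, 2.45 to 5.82). The HP1 genes CBX3 and CBX5 held 81 and 40, and 107 and 39 fragments. Of the 5 with no end peak, UHRF1 was covered over 1402 bp (ERG) and 313 bp (Vector) inside its record, and SUV39H1 over 707 and 807 bp. DNMT3A, ERG-only at its ends, was covered over 849 bp in the Vector library.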

How the data were processed

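Per the labels' protocols, cells were fixed in 1% formaldehyde and each pull-down took 10 µg of chromatin. Bowtie2, MACS2, deepTools and hg38 are named in the submitters' processing notes, without versions; use of an input, and treatment of duplicate or poorly mapped reads, are not given in the sources used here. Reads of near-identical ZNF copies are therefore uncertain. The authors' deposited lists give positions, a score, a fold ratio over the local background, and −log10 p-value and −log10 q-value per peak (lowest −log10 q 1.31 and 1.32). Fragments n and background b were solved from fold = (n + 1)/(b + 1) and the Poisson tail, within a relative error of 0.0001, for all 19671 and 9161 peaks (100%); on 2939 simulated peaks made with the same formulas 100% were recovered, which tests the calculation only.

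Peaks overlapped gene ends, start sites or each other by at least 1 bp. A member's ratio used the overlapping end pair with the highest Vector-library −log10 q-value. Intervals are exact (Clopper-Pearson for shares, conditional for ratios). Named genes were the 10 strongest of each class by −log10 q-value, 5 highest and 5 lowest ratios, 5 strongest body peaks per library, and 5 largest covered lengths and differences (40 genes); others were chosen after their values were seen. Members, lists and tests were chosen with earlier results of these data known. Planned protein features were not analysed here. Peaks on alternative copies of chromosome 19 (70 and 19) were not used. Python 3.11.15, numpy 2.4.6, pandas 2.3.3, scipy 1.17.1.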

Additional observations from a re-analysis of the deposited data

How the results depend on the processing

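With 1 library per group no replicate could be left out, and no test was made. No paired analysis was possible because each group has 1 library. Of 73 alternative values for the counts, lengths and ratio, 65 stayed within 1.5 times the main value. With the ERG list limited to the 9161 peaks of the Vector list, which brings the counts closer by construction, 51 members were ERG-only and 6 Vector-only, against 6.15% and 3.66% of all coding genes. The Vector-only count was 1 with the ERG list scaled to the Vector depth, 1 with a window of 2.5 kb and 2 with the ERG list scaled by the median ratio of 2.07 at all shared peaks, an alternative chosen after seeing the data. When the list was cut to its upper 50% by score, 87 members had no end peak and 13 had a body peak in the Vector library. Counting start sites left 28 members with none, of 216. Divided by 2.07 in place of 1.44, the median ratio of shared member end peaks was 1.10 in place of 1.57. Peaks with few fragments limit detection: the weakest held 9 (ERG) and 8 (Vector).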
